A study of Mus musculus with 12 samples.

Results

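The 9 genes described here encode heat shock chaperones: Hspa1a, Hspa1b, Hspa8, Hsph1, Dnajb1, Hspb1, Hsp90aa1, Hspe1 and Hspd1. They were taken by gene symbol from the 26264 genes of the deposited count tables, by a rule that sets no threshold on measured values, although the list was drawn up with earlier results of these data known. All 9 were present and passed the filter on low counts. RNA was sequenced from glomeruli, the filtering units of the kidney, of 8-week-old male mice. They belonged either to BALB/cAjcl, called Ajcl here, or to the related substrain BALB/cByJcl, called ByJcl. Each substrain had 3 untreated (baseline) libraries and 3 libraries from Day 5 after a single intravenous injection of adriamycin at 10 mg/kg, a DNA-damaging drug that injures podocytes. The substrain was the only genetic difference named between the groups. Glomeruli were collected by perfusion with magnetic beads followed by collagenase digestion, so each library holds podocytes, endothelial and mesangial cells and some tubule fragments. The design gives 3 mice per group, without tying each library to a mouse. Each p-value rests on the spread between libraries, estimated for each gene over all groups together.

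Heat shock proteins hold unfolded proteins, help them to fold and pass damaged ones on for degradation. In the cytosol, HSP40 proteins such as Dnajb1 bring clients to HSP70 proteins (Hspa8, the constitutive form, and Hspa1a and Hspa1b, the inducible pair), HSP110 (Hsph1) recharges HSP70 with ATP, and HSP90 (Hsp90aa1) finishes the folding of kinases and hormone receptors. Hspb1 is a small heat shock protein that binds unfolding proteins and actin filaments, and Hspe1 with Hspd1 forms the folding chamber of mitochondria. Transcription of these genes is raised by heat shock factor 1 (Hsf1), which binds repeats of GAA and TTC, and handling, warming or dissociation of tissue is known to switch on the inducible members within minutes to hours.

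The genes lie on 6 chromosomes of the mouse genome GRCm39. Hspa1b (chr17:35175412-35178214) and Hspa1a (chr17:35188166-35191132) are neighbours on the minus strand, 9952 bases apart. Hspe1 (chr1:55127260-55130476, plus strand) and Hspd1 (chr1:55116989-55171038, minus strand) are transcribed away from each other across a shared promoter, and a second annotated start of Hspd1 lies beyond Hspe1, so reads of the pair can overlap. Stretches upstream of the start sites are shown for 5 members because they hold matches to the repeats that heat shock factor reads. They were taken from RefSeq promoters of GRCm38.p6, which listed 7 of the 9 members, and were located by their letters in GRCm39. Capitals mark a pair of facing repeat units (GAANNTTC or TTCNNGAA, both strands searched), or a longer overlapping run of them, and positions are counted back from the RefSeq start. In the GRCm39 annotation the Hsph1 stretch overlaps an exon of Hsph1, whose annotated 5′ end is farther upstream at chr5:149560156, and the Hspe1 stretch overlaps an annotated exon of Hspd1.

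Hspa1a (chr17:35191173-35191272, minus strand, positions -140 to -41) and Hspa1b (chr17:35178255-35178354, minus strand): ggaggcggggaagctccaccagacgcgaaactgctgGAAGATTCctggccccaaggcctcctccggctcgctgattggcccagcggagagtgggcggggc
Hspb1 (chr5:135916633-135916732, plus strand, positions -140 to -41): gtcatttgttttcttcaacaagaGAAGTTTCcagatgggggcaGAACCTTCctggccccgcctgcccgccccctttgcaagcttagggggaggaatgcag
Hsph1 (chr5:149559817-149559846, minus strand, positions -45 to -16): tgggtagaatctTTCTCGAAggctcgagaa
Hspe1 (chr1:55127212-55127241, plus strand, positions -95 to -66, also in the upstream window of the other start of Hspd1): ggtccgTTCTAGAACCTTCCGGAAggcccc

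The Hspa1a and Hspa1b stretches are the same letter for letter, and their 250-base upstream windows were identical at 247 positions (98.8%). The 7 members had 10 listed promoters, of which 7 held at least 1 pair of facing units in the 250 bases upstream, against 12.8% of the 32851 mouse promoters listed. They are not separate cases, since Hspa1a and Hspa1b are nearly identical there, Hspe1 and Hspd1 share DNA and the windows of the listed Hsph1 starts overlap. By gene, 6 of 7 members held a pair at a listed start, and the share of all genes that did so was not counted. Dnajb1 held none at either of its listed starts. The longer motif of 3 units (GAANNTTC continued by NNGAA, or TTCNNGAA continued by NNTTC, so that each match also holds the shorter motif) was found in 2 of the 10 promoters, 1 each of Hspe1 and Hspd1 and in the same piece of DNA, and in 0.466% of all promoters. Hspa8 and Hsp90aa1 were not in the promoter table. These matches are descriptions of sequence and not of binding.

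Total counts per library ranged from 42198416 to 54687045, so depth did not limit the measurement of any member, whose lowest count in a library was 410. Levels are given as CPM, a gene's share of its library's counts, after TMM scaling, which sets library sizes from the bulk of genes, over all 12 libraries. Libraries are numbered as in the labels. Ajcl Day 5 library 1 was left out of the tests for low glomerular purity, following the published analysis. The 6 tubule markers (among them Lrp2 and Umod) summed to 3711 CPM in that library and to between 339 and 3565 CPM in the others, and Ajcl baseline library 3 gave the 3565. The 8 podocyte markers were detected in every library, with sums of 14453 to 19800 CPM at Ajcl baseline, 18066 to 20865 CPM at ByJcl baseline, 9180 to 14843 CPM at Ajcl Day 5 and 7131 to 10806 CPM at ByJcl Day 5. Fewer podocytes and less RNA per podocyte cannot be told apart in such bulk samples.

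Per kilobase of exon, Hspa8 was the most abundant member, with a median of 608 CPM per kb over the 12 libraries and rank 1 or 2 of the 9 in each. Hspb1 followed at a median of 366 CPM per kb and Hsp90aa1 at 176 CPM per kb. The mitochondrial pair stood at 93.8 CPM per kb for Hspd1 and 70.6 CPM per kb for Hspe1, with overlapping ranges. Hspa1b (median 37.5 CPM per kb), Hsph1 (23.9), Hspa1a (23.1) and Dnajb1 (20.4 CPM per kb) were lowest and changed places from library to library. Hspa1b ranked between 2 and 9 and Hspa1a between 4 and 9, since these genes ranged over more than 100-fold.

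The untreated libraries differed widely from one another in these genes. Among the 6 baseline libraries the highest level exceeded the lowest by 351-fold for Hspa1b and 186-fold for Hspa1a, against a median of 1.49-fold over the 15714 genes with a count in every library. Only 5 of those genes ranged over more than 100-fold, and the other 3 (Kcne1, Cfd and Atp4a, named after their values were seen) reached no more than 5.73 CPM in any baseline library. Hsph1 ranged over 11.8-fold, Dnajb1 over 6.11-fold, Hspa8 over 4.79-fold and Hsp90aa1 over 4.37-fold. Hspb1, Hspd1 and Hspe1 were the steadiest, at 2.7-fold, 2.56-fold and 2.41-fold.

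A single pair of ByJcl libraries set both ends of this range. ByJcl baseline library 3 had the lowest baseline level of all 9 members, and ByJcl baseline library 1 had the highest of 8, with Hspd1 highest in Ajcl baseline library 1. In ByJcl baseline library 3 the 9 members summed to 1463 CPM, against 10724 and 4752 CPM in the other untreated ByJcl libraries and 1448 to 3462 CPM at Day 5. For 7 members that library lay within or below the range of the ByJcl Day 5 libraries. Its podocyte markers summed to 18786 CPM and its tubule markers to 1344 CPM, both inside the range of the other baseline libraries. Its 8 immediate early genes (Fos, Jun, Egr1 and others induced during tissue handling) summed to 4007 CPM, above the 2747 to 3352 CPM of the other baseline libraries and inside the 3437 to 5824 CPM of Day 5. Its leukocyte markers summed to 88.35 CPM, above the 22.7 to 52.1 CPM of the other baseline libraries. The part of any of these in the chaperone levels was not tested.

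**Figure D1:**
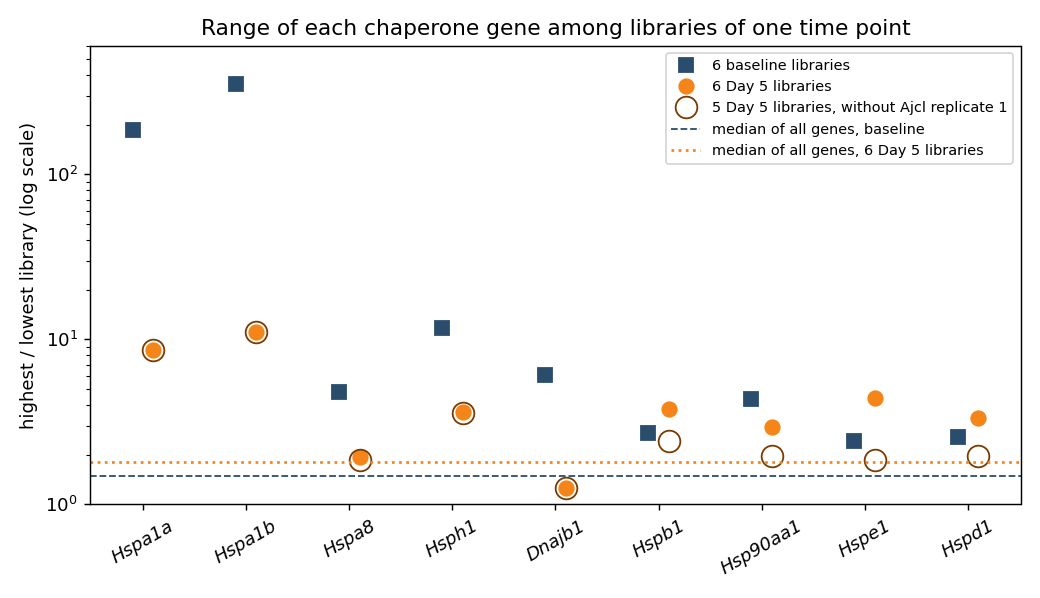
Highest over lowest TMM-normalised CPM among the libraries of one time point, on a log axis, for each of the 9 chaperone genes. Squares are the 6 baseline libraries, filled circles the 6 Day 5 libraries, open circles the 5 Day 5 libraries without Ajcl library 1, and lines the medians of 15714 genes. Hspa1a and Hspa1b reached 186-fold and 351-fold at baseline and 8.61-fold and 11.1-fold at Day 5.

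At Day 5 the range was narrower for 6 of the 9 members. Hspa1b spanned 11.1-fold and Hspa1a 8.61-fold over the 6 Day 5 libraries, Hsph1 3.65-fold, Hsp90aa1 2.95-fold, Hspa8 1.95-fold and Dnajb1 1.26-fold, where the median gene spanned 1.80-fold. The range was wider at Day 5 for Hspe1 (4.43-fold), Hspb1 (3.76-fold) and Hspd1 (3.32-fold). Without Ajcl Day 5 library 1 these came to 1.85-fold, 2.41-fold and 1.97-fold, each narrower than at baseline.

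The first question of the design is how glomeruli of each substrain changed by Day 5 after adriamycin. In ByJcl, all 9 chaperone genes had lower fitted levels at Day 5 than at baseline, and Hspb1 and Hsph1 passed the test. The median log2 fold change (log2FC) of the 9 was -1.05, against 0.01 over the 17002 genes tested. By edgeR's quasi-likelihood fit, with p adjusted by Benjamini-Hochberg over all genes, 2 of 9 members were called lower and none higher, where 10.6% of all genes were called and 4.83% were called lower. At an unadjusted p below 0.05 there were 6 of 9 members, against 26.8% of all genes. DESeq2 called 5 members (Hspb1, Hsph1, Hspa1b, Hspe1 and Hspd1), all lower, and called 6.9% of all genes lower.

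In Ajcl, the same 9 genes were all lower at Day 5 by their fitted values and none passed the adjusted test. The median log2FC was -1.26, against -0.01 over all genes, and it ran from -4.81 for Hspa1b to -0.92 for Hspa8. Only 0.312% of all genes were called in this comparison and 0.00588% were called lower, which is 1 gene of 17002. At an unadjusted p below 0.05 there were 7 of 9 members (all but Hspa8 and Dnajb1), against 9.8% of all genes, and neither edgeR nor DESeq2 called any, with adjusted p from 0.337 to 0.596 by edgeR. With all 12 libraries the median log2FC was -0.92 and 4 of 9 members had an unadjusted p below 0.05, against 9.1% of all genes. Since the spread is estimated over all groups, the wide spread of the untreated ByJcl libraries entered these Ajcl p-values. Without ByJcl baseline library 3, the SE in Ajcl went from 0.49 to 0.24 for Hspa8 and from 0.84 to 0.58 for Hsph1. Their log2FC stayed the same, and no member was called (adjusted p from 0.221 to 0.471, edgeR). The baseline and Day 5 counts were deposited as separate tables, and a difference in how these were made cannot be told apart from the effect of adriamycin.

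**Figure D2:**
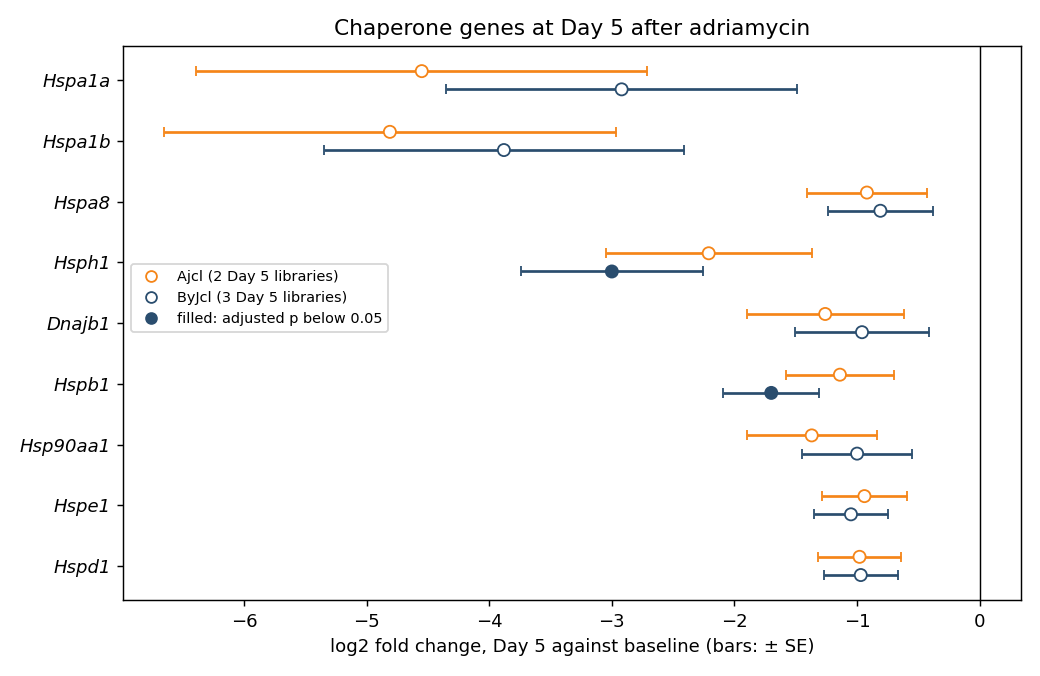
Log2 fold change of each chaperone gene at Day 5 against baseline in Ajcl (orange) and ByJcl (blue), with bars of 1 SE derived from edgeR's F statistic over 11 libraries. All 18 values lie below 0, and the 2 filled symbols, Hsph1 and Hspb1 in ByJcl, had an adjusted p below 0.05.

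Hspb1, the small heat shock protein that binds actin and unfolding proteins, had the lowest adjusted p of the members in ByJcl. It stood at 767, 695 and 284 CPM in the ByJcl baseline libraries and at 139, 159 and 242 CPM at Day 5. Every treated ByJcl library thus lay below every untreated one. The mean fell from 582 ± 261 CPM to 180.0 ± 54.4 CPM (SD, n = 3 each), a log2FC of -1.70 (edgeR, SE 0.39, adjusted p = 0.0200). The call was lost without any 1 of 4 ByJcl libraries, with edgeR adjusted p of 0.0664 and 0.0704 without baseline library 1 or 2 and 0.0604 and 0.0881 without Day 5 library 1 or 2. In Ajcl it was at 461, 386 and 407 CPM at baseline and at 267 and 111 CPM in Day 5 libraries 2 and 3, with a log2FC of -1.14 (edgeR, SE 0.44, adjusted p = 0.393). Ajcl Day 5 library 1 held 417 CPM, inside the baseline range, and with it the log2FC was -0.66. Of the 150-base windows of the Hspb1 transcript, 52.5% also occur in the pseudogene Hsp25-ps1, so part of its reads could be assigned to either.

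Hsph1, the HSP110 nucleotide exchange factor, had the larger fold change of the 2 called members, though Hspb1 lost more CPM on average. Its ByJcl libraries held 854, 350 and 72.6 CPM at baseline and 41.6, 40.7 and 78.4 CPM at Day 5. The lowest untreated library lay below the highest treated one, so the groups overlapped by that pair. The mean fell from 426 ± 396 CPM to 53.6 ± 21.5 CPM (SD, n = 3 each), and the log2FC was -3.00 (edgeR, SE 0.74, adjusted p = 0.0275). The call was lost without ByJcl baseline library 1 (log2FC -1.99, edgeR adjusted p = 0.0924) or 2 (0.0613) and without ByJcl Day 5 library 1 (0.077) or 2 (0.116). It was also lost with the replicate number as a block (log2FC -2.46, edgeR adjusted p = 0.0729). Ajcl baseline libraries held 505, 502 and 305 CPM and Day 5 libraries 149, 146 and 42.8 CPM, without overlap. There the log2FC was -2.21 (edgeR, SE 0.84, adjusted p = 0.386). No 150-base window of Hsph1 occurs in another annotated transcript.

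The inducible HSP70 pair had the largest fitted fold changes in Ajcl and the widest errors in both substrains, and neither gene passed edgeR's test. Hspa1a was at 889, 741 and 96.3 CPM in untreated Ajcl glomeruli and at 27.5, 26.9 and 22.4 CPM at Day 5. All treated Ajcl libraries were close together and below all untreated ones, and the log2FC was -4.55 (edgeR, SE 1.84, adjusted p = 0.432). In ByJcl the same gene was at 1791, 134 and 9.66 CPM at baseline and 193, 40.7 and 25.5 CPM at Day 5, a log2FC of -2.92 (edgeR, SE 1.43, adjusted p = 0.217). Its untreated ByJcl libraries spanned the whole treated range from above and below. Without ByJcl baseline library 1 the ByJcl log2FC of Hspa1a was 0.25.

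For Hspa1b, Ajcl libraries held 1169.9, 1021 and 244 CPM at baseline and 44.1, 43.2 and 14.9 CPM at Day 5, and ByJcl libraries 2624, 535 and 7.47 CPM at baseline and 166, 32.7 and 19.6 CPM at Day 5. The log2FC was -4.81 (SE 1.84, adjusted p = 0.389) in Ajcl and -3.88 (SE 1.47, adjusted p = 0.118) in ByJcl, both by edgeR. DESeq2 called Hspa1b lower in ByJcl (log2FC -3.86, adjusted p = 0.0449) and not in Ajcl (adjusted p = 0.0956). Of the 150-base windows of Hspa1a, 38.1% occur in Hspa1b, and the share of the pair's counts assigned to Hspa1a ran from 20.0% to 60.03%. With the counts of both genes summed, the log2FC was -4.70 (SE 1.80, adjusted p = 0.392) in Ajcl and -3.44 (SE 1.42, adjusted p = 0.149) in ByJcl.

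Hspa8, the constitutive HSP70, passed the test in neither substrain. It stood above each gene of the inducible pair in every library except ByJcl baseline library 1, where Hspa1b reached 2624 CPM against 2446 CPM of Hspa8. Untreated Ajcl glomeruli held 2195, 2047 and 2005 CPM, with a coefficient of variation of 4.80%, and treated ones 1496, 1417 and 767 CPM. ByJcl libraries held 2446, 1898 and 510.4 CPM at baseline and 821, 1015 and 960.1 CPM at Day 5, where untreated library 3 was lower than every treated library. The log2FC was -0.92 (SE 0.49, adjusted p = 0.596) in Ajcl and -0.81 (SE 0.43, adjusted p = 0.253) in ByJcl by edgeR. Of its 150-base windows, 55.4% also occur in annotated pseudogenes.

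Dnajb1, the HSP40 partner that hands clients to HSP70, passed the test in neither substrain, and its treated libraries lay close together. These held 61.5, 74.2 and 65.8 CPM in Ajcl and 73.4, 64.7 and 58.6 CPM in ByJcl, and the baseline libraries 234, 181 and 87.3 CPM in Ajcl and 266, 70.9 and 43.5 CPM in ByJcl. A pair of the untreated ByJcl libraries (70.9 and 43.5 CPM) was as low as the treated ones. The log2FC was -1.26 (SE 0.64, adjusted p = 0.572) in Ajcl and -0.96 (SE 0.55, adjusted p = 0.295) in ByJcl by edgeR. In ByJcl it was 0.18 without baseline library 1.

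Hsp90aa1, the inducible cytosolic HSP90, was at 1298, 922 and 716 CPM in Ajcl at baseline and at 798, 484 and 271 CPM at Day 5. In ByJcl it was at 1513, 757 and 346 CPM at baseline and at 305, 529 and 481 CPM at Day 5, and the groups overlapped through untreated library 3. The log2FC was -1.37 (SE 0.53, adjusted p = 0.391) in Ajcl and -1.0 (SE 0.45, adjusted p = 0.183) in ByJcl by edgeR. A share of 33.5% of its windows occurs in other annotated transcripts.

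The mitochondrial pair came next to the called genes in ByJcl. Hspe1 (HSP10) was at 91.5, 65.7 and 38.0 CPM at baseline and 29.6, 28.5 and 37.2 CPM at Day 5 in ByJcl, without overlap, with a log2FC of -1.05 (edgeR, SE 0.30, adjusted p = 0.0511). Hspd1 (HSP60) was at 373, 247 and 151 CPM at baseline and 105, 127 and 163 CPM at Day 5, with a log2FC of -0.97 (edgeR, SE 0.30, adjusted p = 0.0615). In Ajcl, Hspe1 was at 90.8, 59.4 and 72.2 CPM at baseline and 49.9 and 27.1 CPM in Day 5 libraries 2 and 3, and Hspd1 at 387, 285 and 321 CPM and then 207 and 127 CPM. Their log2FC in Ajcl were -0.94 (SE 0.35, adjusted p = 0.370) and -0.98 (SE 0.34, adjusted p = 0.337) by edgeR. Ajcl Day 5 library 1 held 119.9 CPM of Hspe1 and 349 CPM of Hspd1, and with it the log2FC were -0.18 and -0.54.

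**Figure D3:**
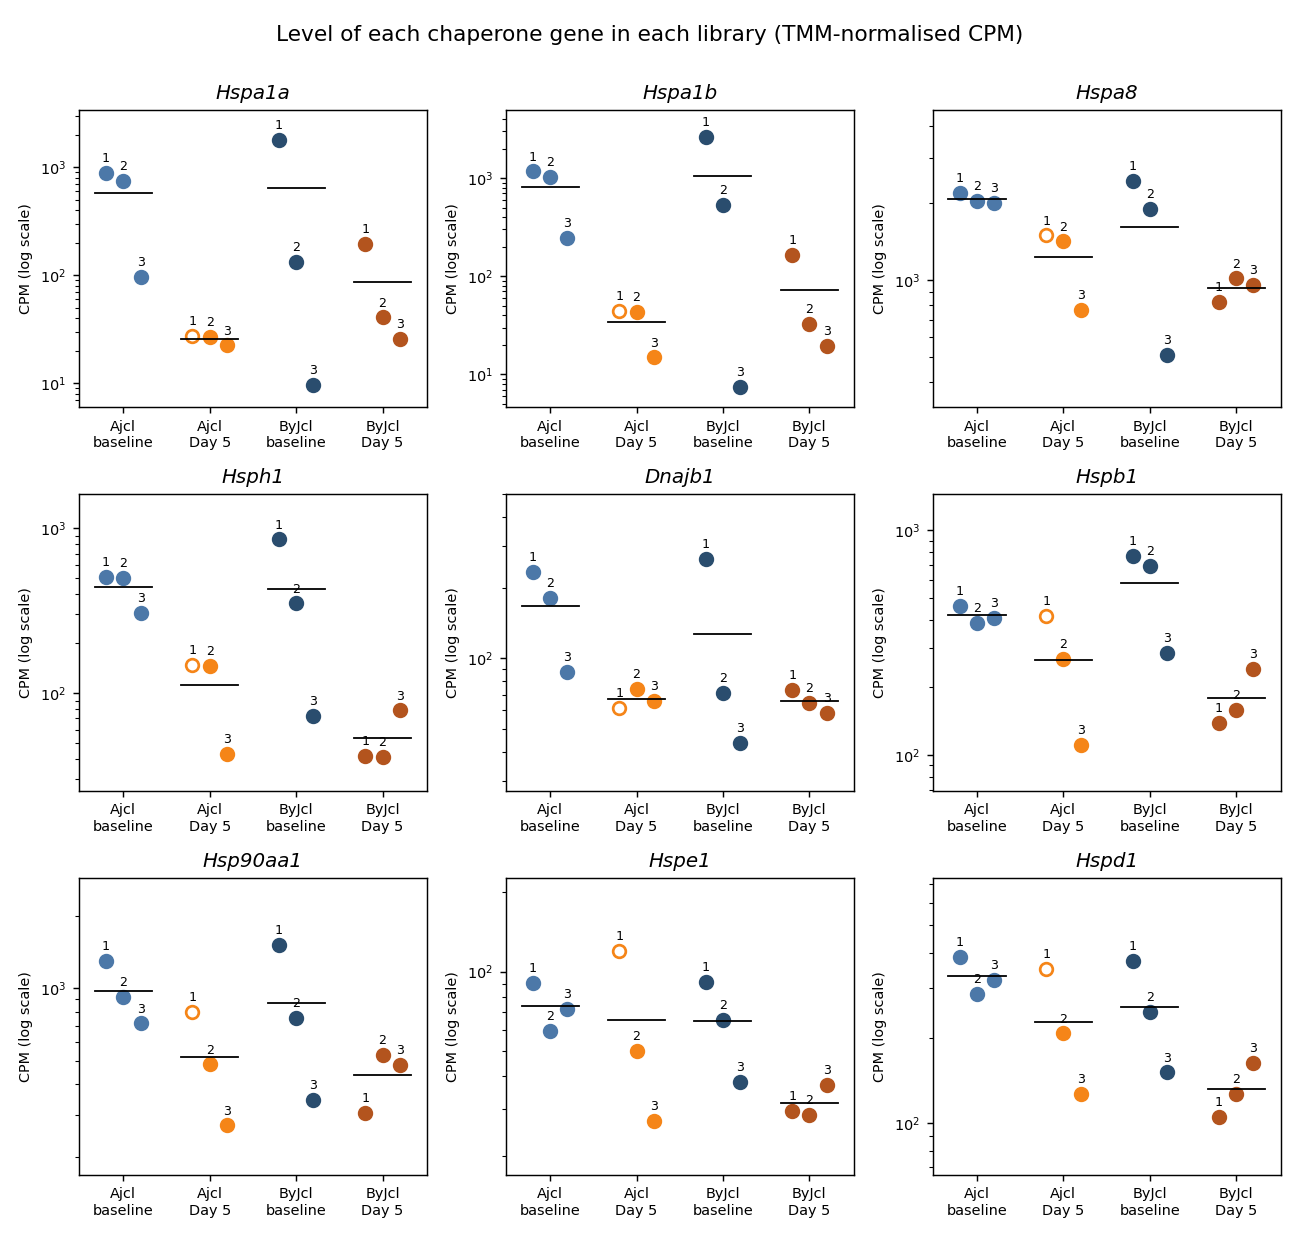
TMM-normalised CPM (log axis) of the 9 chaperone genes in each library, by substrain and time point. Numbers are library numbers, lines are means of 3 libraries, and the open symbol is Ajcl Day 5 library 1, left out of the tests. ByJcl baseline library 3 is the lowest untreated library in every panel.

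How many members separated cleanly depended on single libraries. In ByJcl, 2 of 9 members (Hspb1 and Hspe1) had every Day 5 library below every baseline library, where 15.1% of all genes did. Without ByJcl baseline library 3 it was 7 of 9 (all but Hspa1a and Dnajb1), against 19.6% of all genes. Leaving out any library can only keep or raise such a number, and that library was singled out for its low levels of all 9 members. The number was 2 of 9 without baseline library 1 (20.4% of genes), baseline library 2 (18.2%), Day 5 library 1 (22% of genes) or Day 5 library 2 (18.2%), and 4 of 9 without Day 5 library 3 (19.9%). The fit without baseline library 3 also called 6 of 9 members lower (Hspa1b, Hspa8, Hsph1, Hspb1, Hspe1 and Hspd1), against 3.07% of all genes, with a median log2FC of -1.38. Since the choice of that library used the members' own levels, nothing is read from either count without it. Without ByJcl baseline library 1 or 2, or without ByJcl Day 5 library 1 or 2, edgeR called no member. Over all genes those fits called 841, 730, 1576 and 680 in that order, against 1800 with none of them left out. Without ByJcl baseline library 1 the log2FC shrank to -1.99 for Hsph1, -1.92 for Hspa1b and -0.34 for Hsp90aa1, and was above 0 for Hspa1a (0.25) and Dnajb1 (0.18). In Ajcl, 5 of 9 members (Hspa1a, Hspa1b, Hspa8, Hsph1 and Dnajb1) separated over all 6 libraries, against 6.62% of genes, and 9 of 9 did so without Ajcl Day 5 library 1, against 12.5% of genes. The size of the Ajcl change rested on the remaining Day 5 libraries: without library 2 the log2FC was -3.35 for Hsph1 and -1.91 for Hspb1, and without library 3 it was -1.60 and -0.66.

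Other cell contents moved over the same comparison. All 8 podocyte markers were called lower in ByJcl at Day 5 (median log2FC -1.20), and 4 of 8 immediate early genes (Fos, Junb, Fosb and Atf3) were called higher, with summed levels of 4928 to 5824 CPM against 2782 to 4007 CPM at baseline. None of the 6 tubule markers was called by edgeR, 0 of them had an unadjusted p below 0.05, and DESeq2 also called 0. In Ajcl edgeR called 0 of 8 podocyte markers (2 at an unadjusted p below 0.05, 1 by DESeq2) and 0 of 8 immediate early genes (4 and 0), with medians of -0.40 and 0.51. Of 5 erythroid markers 4 had no count in any library, and the other, Alas2, was called lower in both substrains (log2FC -3.46 in Ajcl and -3.50 in ByJcl). In ByJcl, edgeR also called 3 of 8 endothelial markers (1 higher, 2 lower), 1 of 4 smooth muscle markers (Tagln, higher) and 1 of 6 leukocyte markers (Cd68, higher), and the leukocyte markers summed to at most 111.6 CPM in any library. The part of these cells in the chaperone levels was not tested.

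The second question is whether the substrains differed. At baseline no member was called between ByJcl and Ajcl, where 0.159% of all genes were. The log2FC ran from -0.38 for Dnajb1 to 0.51 for Hspb1, with a median of -0.14 and adjusted p from 0.684 to 0.998 (edgeR), no member had an unadjusted p below 0.05, and DESeq2 called 0. The ranges of the substrains overlapped for all 9 members, and the SE of 1.31 for Hspa1b and 1.32 for Hspa1a left differences of several fold undetectable. Without ByJcl baseline library 3 the log2FC was above 0 for 8 of 9 members, with a median of 0.24, and Hspb1 reached 0.83 (edgeR, SE 0.32, adjusted p = 0.673). Without ByJcl baseline library 1 it was instead below 0 for 8 of 9 members (all but Hspb1, at 0.26), with a median of -0.80, and ran down to -2.99 for Hspa1a, -1.57 for Hspa1b and -1.53 for Dnajb1.

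At Day 5 no member was called between the substrains either, where 0.165% of all genes were. Hspa1a was higher in ByJcl by a log2FC of 1.80 (SE 1.6, adjusted p = 0.630) and Hspa1b by 1.32 (SE 1.54, adjusted p = 0.723), both carried by ByJcl Day 5 library 1 at 193 and 166 CPM. Hsph1 was lower by -0.80 (edgeR, SE 0.76, adjusted p = 0.656). The other 6 lay between -0.33 and 0.22. No member had an unadjusted p below 0.05, DESeq2 called 0, and the ranges overlapped for all 9 members. With Ajcl Day 5 library 1 included, the log2FC of Hspe1 moved from -0.27 to -1.05 (edgeR, SE 0.45, adjusted p = 0.245) and that of Hspd1 from -0.33 to -0.79 (edgeR, SE 0.36, adjusted p = 0.275). Hspe1 was then the 1 member at an unadjusted p below 0.05, against 18.3% of all genes.

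The third question is whether adriamycin acted differently in the substrains, which the interaction term tests. No gene was called (0% of 17002, with 1363 genes at an unadjusted p below 0.05 and 23 genes called by DESeq2), and no member had an unadjusted p below 0.05 or was called by DESeq2. The interaction log2FC, ByJcl response minus Ajcl response, was 1.63 (SE 2.03) for Hspa1a, 0.93 (SE 1.99) for Hspa1b, -0.78 (SE 1.02) for Hsph1 and -0.56 (SE 0.56) for Hspb1, and the other 5 lay between -0.11 and 0.37. The call of Hspb1 and Hsph1 in ByJcl alone therefore does not show that their responses differed between the substrains.

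The rest of the chaperone machinery was followed in 101 further genes in 10 lists by role, of which 99 were tested. In ByJcl, 10 of them (10.1%) were called at Day 5, 7 lower and 3 higher, a share close to the 10.6% of all genes, 30 of 99 were at an unadjusted p below 0.05 (26.8% of all genes), and their median log2FC was -0.05. With 1 ByJcl library left out the number was 3, 2 and 15 without baseline library 1, 2 and 3, and 6, 1 and 14 without Day 5 library 1, 2 and 3. Over all genes the same fits called 841, 730 and 1063, and then 1576, 680 and 1611, against 1800 with none of these left out. The share called in these lists therefore did not stay close to that of all genes in each fit. In Ajcl edgeR called 0 of 99, with 25 of 99 at an unadjusted p below 0.05, where 9.8% of all genes were, 1 called by DESeq2 and a median of -0.20. Between the substrains edgeR called 0 of 99 at baseline (6 at an unadjusted p below 0.05, 0 by DESeq2) and 0 at Day 5 (7 unadjusted, 2 by DESeq2). The interaction also gave 0 (8 unadjusted, 0 by DESeq2).

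None of the 6 regulators of the heat shock response was called in ByJcl, with 1 at an unadjusted p below 0.05 and 0 called by DESeq2. Hsf1, the factor that switches these genes on, was at 65.3 ± 4.40 CPM at ByJcl baseline and 55.5 ± 7.98 CPM at Day 5 (SD, n = 3 each), a log2FC of -0.25 (edgeR, SE 0.12, adjusted p = 0.204). In Ajcl its log2FC was -0.19 (edgeR, SE 0.13, adjusted p = 0.735). Hsf2, a related factor, had log2FC of 0.13 and 0.09, and Hsbp1, which binds and restrains Hsf1, of 0.05 and -0.16 in ByJcl and Ajcl.

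Among the HSP70 and HSP110 relatives, 2 of 8 were called in ByJcl, both lower, where 10.6% of all genes were called. Hspa4l, an HSP110 of the same family as Hsph1, fell from 97.6 ± 49.4 to 29.4 ± 11.6 CPM (SD, n = 3 each; log2FC -1.74, SE 0.45, adjusted p = 0.0325, edgeR). Hspa12a, a distant HSP70 relative, fell from 369 ± 38.5 to 200.4 ± 27.4 CPM (log2FC -0.90, SE 0.17, adjusted p = 0.00983, edgeR). Of 13 HSP40 genes, Dnaja4 was lower (log2FC -1.10, SE 0.30, adjusted p = 0.0419) and Dnajb5 was higher (log2FC 1.04, SE 0.17, adjusted p = 0.00506, edgeR). The call of Dnaja4 was lost with all 12 libraries (adjusted p = 0.0506, edgeR).

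The HSP90 list had 3 of 15 genes called in ByJcl, where 10.6% of all genes were. Hsp90ab1, the constitutive cytosolic HSP90, fell from 3507 ± 1404 to 1452 ± 336 CPM (SD, n = 3 each; log2FC -1.28, SE 0.33, adjusted p = 0.0316, edgeR). Fkbp4, an immunophilin partner of HSP90, had a log2FC of -1.47 (edgeR, SE 0.34, adjusted p = 0.0204). Its relative Fkbp5, a glucocorticoid-responsive gene, rose from 52.7 ± 6.88 to 207 ± 173 CPM (log2FC 1.96, SE 0.53, adjusted p = 0.0387, edgeR). Of the 7 other small heat shock protein genes tested, Cryab, an abundant partner of Hspb1, rose from 174 ± 20.3 to 260 ± 23.7 CPM (log2FC 0.57, SE 0.12, adjusted p = 0.0138, edgeR) while Hspb1 fell.

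In the endoplasmic reticulum, 14 of 14 chaperones had a negative log2FC in ByJcl and in Ajcl, against 49.2% and 51.3% of all genes. Their medians were -0.40 and -0.28. Where 10.6% of all genes were called in ByJcl, edgeR called 2 of the 14. These were Pdia4, a disulfide isomerase (log2FC -0.76, SE 0.17, adjusted p = 0.0194), and Sdf2l1, a cofactor of the luminal HSP70 (log2FC -0.83, SE 0.24, adjusted p = 0.0476, and 0.169 with all 12 libraries, edgeR). The TRiC chaperonin, a cytosolic folding chamber, had a median log2FC of -0.06 in ByJcl and -0.46 in Ajcl over 8 subunits, and prefoldin, which feeds it, 0.11 and -0.22 over 6. The 12 mitochondrial chaperones and proteases other than Hspe1 and Hspd1 had medians of 0.07 and -0.07, and the 10 HSP70 nucleotide exchange and other cofactors -0.05 and -0.22. edgeR called none of the genes in these 4 lists in either substrain. In ByJcl the numbers at an unadjusted p below 0.05 and called by DESeq2 were 1 and 0 for TRiC, 0 and 0 for prefoldin, 2 and 1 for the mitochondrial list and 4 and 1 for the cofactors. In Ajcl they were 5 and 0 for TRiC, 0 and 0 for prefoldin, 1 and 0 for the mitochondrial list and 1 and 0 for the cofactors.

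**Figure D4:**
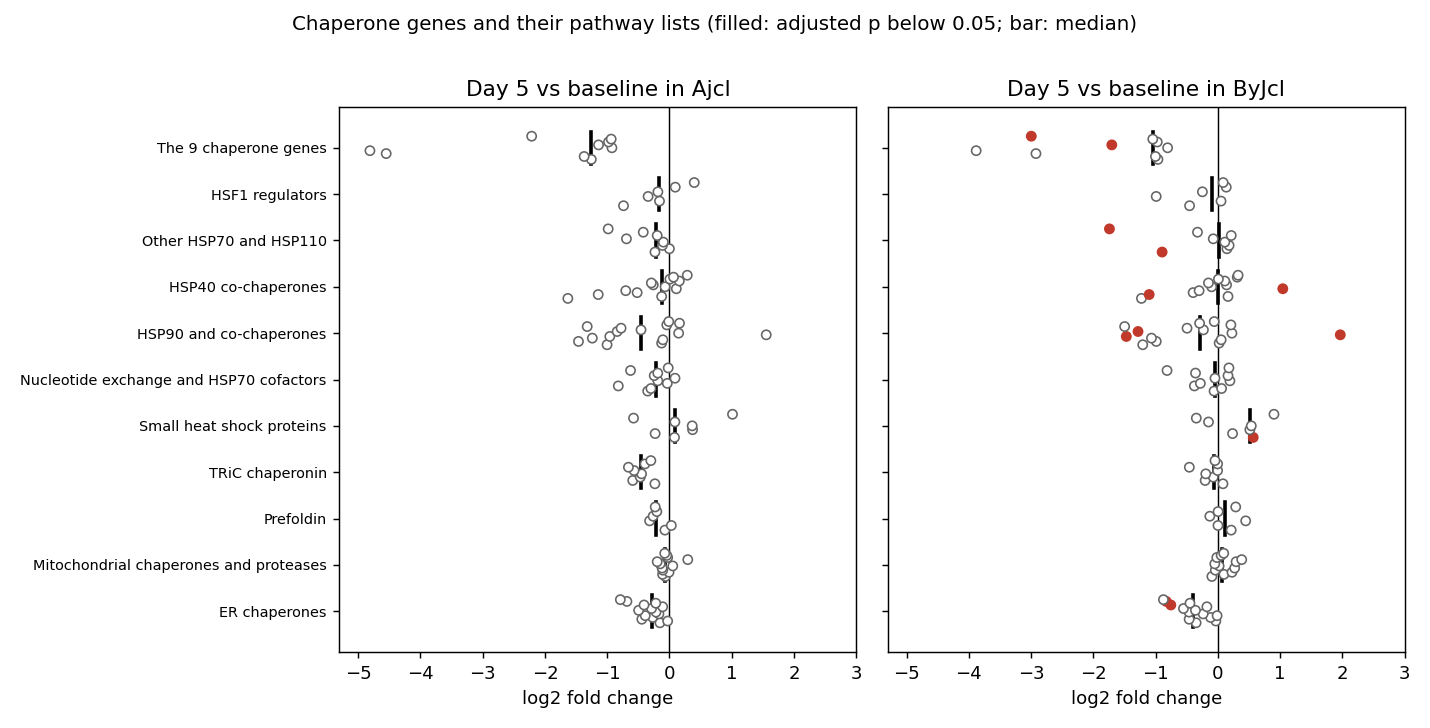
Log2 fold change at Day 5 against baseline of each tested gene in the 9 chaperone genes and the 10 lists by role, in Ajcl (left) and ByJcl (right). Filled points had an adjusted p below 0.05 by edgeR and bars are list medians. The 9 chaperone genes have medians of -1.26 and -1.05, and the medians of the 10 lists lie between -0.46 and 0.51.

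The members followed one another across the 12 libraries. Over the 36 pairs, Pearson's r of log2(CPM + 1) had a median of 0.818 and ran from 0.477 (Hspa1a with Hspe1) to 0.965 (Hspa1a with Hspa1b). These points share their libraries and hold both time points, and the values are descriptions. The 10 genes outside the group whose pattern was most like the mean of the 9 standardised members had r from 0.962 to 0.983 over the 12 libraries. They were Ubqln1 (a shuttle of ubiquitinated proteins to the proteasome, r = 0.983), Ahsa2 and Ahsa1 (activators of the HSP90 ATPase), Dnaja1 and Dnaja4 (HSP40 proteins), Stip1 (the adaptor that links HSP70 to HSP90), Chordc1 and Ptges3 (HSP90 partners), Cct7 (a TRiC subunit) and Cacybp. Of these, 8 belong to the chaperone lists. All 10 were highest at baseline in ByJcl library 1 and lowest at baseline in ByJcl library 3, as were most members. They were chosen for likeness to the members' mean over these same libraries, so sharing its extremes was largely set by that choice.

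The size of the swing differed among these companions. Dnaja1 ranged at baseline from 132 CPM in ByJcl library 3 to 928 CPM in ByJcl library 1, and Stip1 from 90.7 to 498 CPM in the same libraries. Ubqln1, the closest match, ranged only from 122.8 to 189 CPM. Among single members, Hsph1 was closest to Ahsa1 (r = 0.989), Dnajb1 to Naa16 (r = 0.979), Hsp90aa1 to Ptges3 (r = 0.962) and Hspa8 to Stip1 (r = 0.944). Hspa1a and Hspa1b were closest to each other (r = 0.965), as was Hspe1 to Hspd1 (r = 0.963), while Hspd1 was closest to Tmem33 (r = 0.965) and Hspb1 to P4ha1 (r = 0.964), a subunit of the collagen prolyl hydroxylase.

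**Figure D5:**
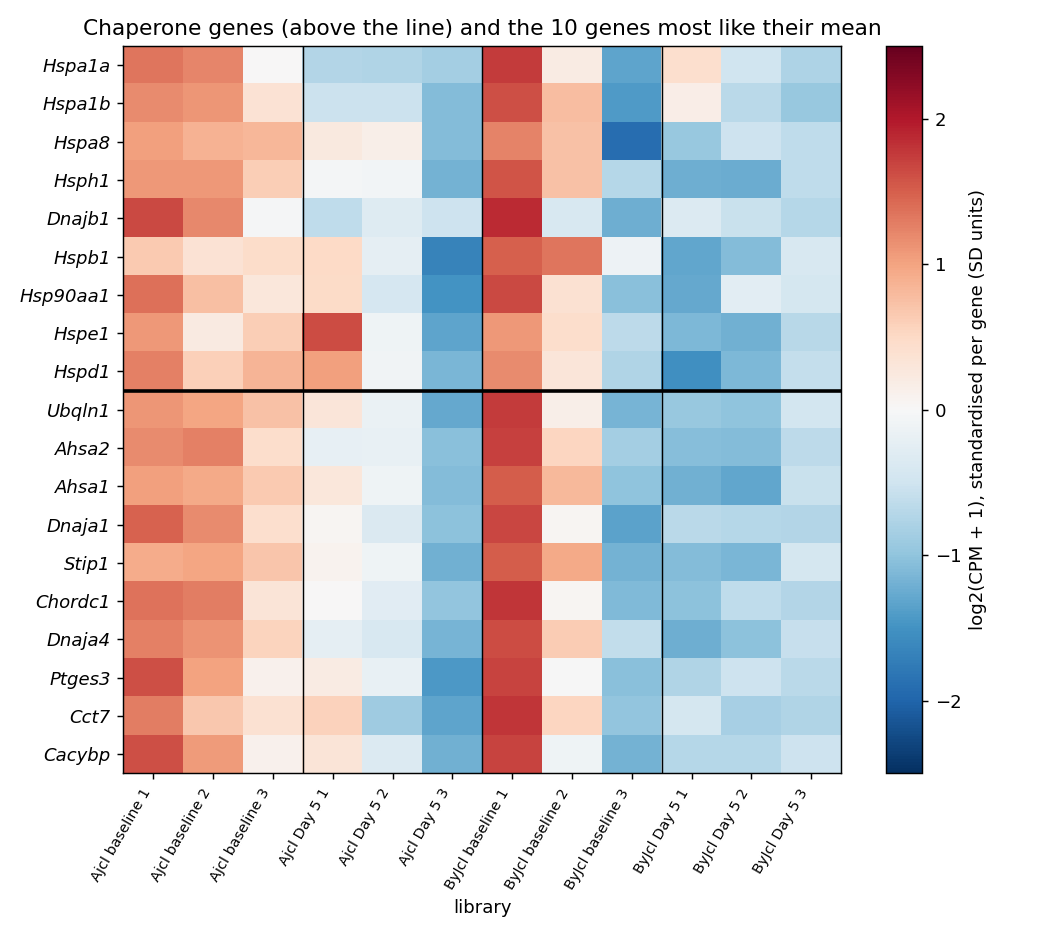
Log2(CPM + 1) of the 9 chaperone genes (above the line) and of the 10 genes most like their mean (below), standardised per gene in SD units over the 12 libraries. The first and second ByJcl baseline libraries are red to pale while the third is blue like most Day 5 libraries, and Ajcl Day 5 library 1 is red for Hspe1, at 119.9 CPM.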

How the data were processed

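The authors trimmed paired-end reads of poly(A)-selected, strand-specific libraries, mapped these with STAR to GRCm39, and summed reads per gene in featureCounts. The strand setting, annotation and treatment of reads that fit several genes are not given in the sources used here. The deposited values are raw counts of 26264 gene symbols in 12 libraries, 3 in each of 4 groups, not normalised. Between 77.1% and 82.9% of counts from 1 to 49 are even in each library, as if most read pairs had been counted as 2 reads, and halved counts were run as an alternative. Replicate libraries differed by 44.6 to 271 chi-square per degree of freedom, so none was a second copy of another.

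Counts were tested in R 4.3.3 with edgeR 4.0.16 (quasi-likelihood test, 1 coefficient per group, TMM, filterByExpr by group) over 11 libraries and 17002 genes, without Ajcl Day 5 library 1, and again over all 12 libraries (16612 genes). Day 5 was compared with baseline in each substrain, ByJcl with Ajcl at each time, and the interaction was tested. Tests are two-sided, p-values were adjusted by Benjamini-Hochberg over all tested genes, and genes below 0.05 are called. The SE given with an edgeR log2FC is the absolute log2FC divided by the square root of the test's F statistic. Other alternatives were DESeq2 1.42.0, other scalings and filters, the replicate number as a block, Hspa1a and Hspa1b summed, and each library left out. Scripts were tested on simulated data. Coordinates and exon lengths come from GENCODE vM39 (23897 of 26264 symbols matched), and shared sequence was searched as exact windows of 150 bases.

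The text names all 9 members, the genes called in each chaperone list (at most 6 per list and comparison), Hsf1, Hsf2, Hsbp1, the 10 genes most like the members' mean and the closest gene of each member. Members, lists and rules were chosen with earlier results of these data known. Tables, correlations and figures were made in Python 3.11.15 with pandas 2.3.3, numpy 2.4.6 and matplotlib 3.10.9.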

Additional observations from a re-analysis of the deposited data

Results flagged for a closer look

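Hspe1, the mitochondrial HSP10, was looked at again in Ajcl Day 5 library 1, which the tests did not use. It stood there at 119.9 CPM, above every untreated library of either substrain, whose highest was 91.5 CPM, and above the 49.9 and 27.1 CPM of the other Ajcl Day 5 libraries. The other 8 members lay below the highest untreated library in that library. The same library had the highest summed tubule markers of the 12, at 3711 CPM, and the part of these in its Hspe1 level was not tested.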

How the results depend on the processing

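All 9 members kept a negative log2FC in Ajcl, with no call, under all 20 alternatives. In ByJcl, 7 members kept it under all 20, and Hspa1a and Dnajb1 turned without ByJcl baseline library 1. With 1 library left out, log2FC in ByJcl ran from -4.29 to 0.25 for Hspa1a, -5.34 to -1.92 for Hspa1b, -1.23 to -0.38 for Hspa8, -3.50 to -1.99 for Hsph1, -1.37 to 0.18 for Dnajb1, -2.03 to -1.45 for Hspb1, -1.38 to -0.34 for Hsp90aa1, -1.32 to -0.72 for Hspe1 and -1.24 to -0.61 for Hspd1, each smallest in size or above 0 without ByJcl baseline library 1. In Ajcl it ran from -5.05 to -4.09 for Hspa1a, -5.77 to -4.25 for Hspa1b, -1.43 to -0.57 for Hspa8, -3.35 to -1.60 for Hsph1, -1.57 to -0.94 for Dnajb1, -1.91 to -0.66 for Hspb1, -1.85 to -1.03 for Hsp90aa1, -1.45 to -0.58 for Hspe1 and -1.38 to -0.69 for Hspd1. All but Hspa1a and Dnajb1 were lowest there without Day 5 library 2 and highest without Day 5 library 3. Members called in ByJcl numbered 5 with DESeq2, 4 without a filter on low counts and 1 with the replicate number as a block (Hspb1), and 0 to 6 with 1 library left out. Halved counts, other scalings, the stricter filter and the summed pair left 2 called. Same-numbered libraries did not deviate together (correlations -0.391 to 0.533, 7 of 18 over 0.1, own number best in 11 of 36), so the number was not taken as a pairing.

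Over all genes, calls at Day 5 in Ajcl numbered 301 with DESeq2, 99 without the filter, 26 with the replicate block and 11 (without Ajcl Day 5 library 3) to 180 (without Ajcl Day 5 library 2) with 1 library left out. In ByJcl they numbered 1197 with all 12 libraries and 680 (without ByJcl Day 5 library 2) to 2056 (without Ajcl baseline library 1) with 1 left out. Between substrains they numbered 101 with DESeq2 and 12 to 29 with 1 left out at baseline, and at Day 5 72 with all 12 libraries, 555 with DESeq2, 56 without the filter and 9 (without Ajcl Day 5 library 2) to 218 (without Ajcl Day 5 library 3) with 1 left out. The interaction gave 23 with DESeq2 and 0 to 5 with 1 left out. The 10 chaperone genes outside the members called in ByJcl became 17 with DESeq2 and 5 with the replicate block. The causes were not tested.

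The substrain and interaction values of members, none called under any alternative, changed sign often. At baseline the replicate block gave -1.31 for Hspa1a and -0.82 for Hspa1b. With 1 library left out, baseline log2FC ran (lowest without ByJcl library 1, highest without ByJcl library 3) from -2.99 to 0.75 for Hspa1a, -1.57 to 0.97 for Hspa1b, -0.76 to 0.09 for Hspa8, -1.03 to 0.48 for Hsph1, -1.53 to 0.03 for Dnajb1, -0.80 to 0.24 for Hsp90aa1 and -0.49 to 0.11 for Hspe1. At Day 5 the block gave 0.02 for Hspb1 and all 12 libraries gave -0.24 for Hsp90aa1, and with 1 left out values ran from -0.15 to 2.28 for Hspa1b, -0.58 to 0.28 for Hspa8, -1.42 to 0.32 for Hsph1, -0.55 to 0.70 for Hspb1, -0.12 to 0.69 for Hsp90aa1, -0.63 to 0.23 for Hspe1 and -0.63 to 0.06 for Hspd1. For the interaction all 12 libraries gave -0.03 for Hspa8, -0.07 for Hsp90aa1 and -0.42 for Hspd1, and with 1 left out values ran from -0.53 to 2.89 for Hspa1b, -0.31 to 0.63 for Hspa8, -1.39 to 0.36 for Hsph1, -0.12 to 1.44 for Dnajb1, -1.04 to 0.21 for Hspb1, -0.01 to 1.03 for Hsp90aa1, -0.46 to 0.41 for Hspe1 and -0.28 to 0.41 for Hspd1.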
